A study of Mus musculus with 16 samples.

Results

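The promoters described here carried H3K4me1 but no H3K4me3 in mouse CD8+ T cells, with or without an inhibitor of the demethylase LSD1. They were selected on the deposited peak lists. A window of 1 kb on either side of a transcription start site (TSS) had to overlap an H3K4me1 peak by at least 1 bp in both treatments, and no H3K4me3 peak in either. This rule found 1395 of 31603 promoter windows (4.41%), which belong to 1244 of 26141 genes. They are called H3K4me1-only promoters below. The H3K4me1 and H3K4me3 peaks are therefore given as a description, and LSD1, H3K4me2, RNA polymerase II (Pol II) and H3K27ac, which the rule did not use, are the measurements reported. The cells came from spleens of OT1 mice, a strain with a transgenic T cell receptor against ovalbumin. Anti-CD3 and anti-CD28 (2 μg/ml each) with 20 ng/ml IL-2 activated them over 48 h, and IL-2 expanded them over 3 more days. GSK2879552 (GSK), an irreversible LSD1 inhibitor, was present at 0.5 μM throughout, and control cells received vehicle (Veh). Each of 6 antibodies gave 1 chromatin immunoprecipitation library per treatment, 12 in all. No result has a replicate, no test was possible, and treatment and library cannot be told apart. The lists hold no read counts. By the study's sequencing summary, the GSK library had fewer unique read pairs than the Veh library for LSD1, H3K4me2 and H3K27ac. It had more for H3K4me1, H3K4me3 and Pol II. All 8 CD8 T cell marker genes (Cd8a, Cd8b1, Cd3e, Cd3d, Cd3g, Thy1, Lck and Cd2) had an H3K4me3 peak in both treatments, against 0 of 4 B cell markers, 1 of 4 myeloid markers (Cd14) and 1 of 2 CD4 T cell markers (Zbtb7b). Pol II was at 4 of the 8 CD8 genes in Veh and 6 in GSK, and at none of the others.

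The methylation state of lysine 4 on histone H3 separates kinds of regulatory DNA. Trimethylation marks the start sites of active and CpG-rich genes, and monomethylation marks enhancers and the flanks of promoters. A start site with H3K4me1 alone therefore looks like an enhancer, and such promoters are known at genes that are silent or poised in the tissue. LSD1 demethylates mono- and dimethylated lysine 4 but not the trimethylated form. It works in complexes with CoREST that are brought to DNA by repressors such as REST and GFI1. REST keeps genes of the nervous system off in other tissues by binding the RE1 element.

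The DNA under the LSD1 peaks differed with the fate of the peak, and so did the strength of the peak. A match to the split RE1 core (AGCACC, then a gap of 2 bases, then GGACAG) was looked for within 50 bp of each LSD1 summit, on both strands, with up to 1 mismatch over the 12 letters. It was present at 15 of 96 Veh LSD1 peaks (15.6%) that H3K4me1-only promoters kept in GSK. It was present at 0 of 97 peaks that they lost, and at 1 of 132 peaks that only GSK cells had. Among all 21252 Veh LSD1 peaks, 159 (0.748%) had a match, and among 3416 peaks at promoters with both H3K4me1 and H3K4me3, 28 (0.82%) had one. This search was chosen after the strongest kept genes had been seen, so the shares describe these peaks and carry no test. Kept windows had stronger Veh LSD1 peaks than lost windows (median −log10 p 8.87 against 6.26). Over all Veh LSD1 peaks, those with a match were also stronger than those without (9.95 against 6.73). Whether the match goes with retention apart from peak strength was not tested at these promoters. The sequences below are the matches at the kept peaks with the highest Veh significance. Each shows the match in capitals with 8 bases on either side, read 5′ to 3′ on the strand given, in mm10.
Xkr7, chr2:153032388-153032417, plus strand, coding exon: ccgccgtcAGCACCAAGGACAGcgacatag
Ttc9b, chr7:27653934-27653963, minus strand, coding exon: tgagcatcAGCACCGGGGACAGcgcgccgc
Scrt1, chr15:76522252-76522281, plus strand, between genes: gcagcttcAGCACCGCGGCCAGcgctggct
Barhl1, chr2:28916259-28916288, plus strand, UTR exon: gccccgccAGCACCGTGGACAGcgccctgc
Sez6, chr11:77930898-77930927, minus strand, UTR exon: acagaatcAGCACCACGGCCAGcgcctggc
Chgb, chr2:132781789-132781818, plus strand, intron: gggatttcAGCACCCCGGACAGctcctaga
Grin1, chr2:25319010-25319039, minus strand, UTR exon: tacgcttcAGCACCTCGGACAGcacccgcc
Vgf, chr5:137030270-137030299, minus strand, intron: ccggcttcAGCACGCTGGACAGcgcccgcg

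The bases around the summit are shown for comparison at 4 of the 5 named protein-coding genes with the most significant lost peaks, Ldlrad4 being the other, with 30 bases on either side of the summit on the plus strand. Capitals mark a match to any of 9 short motifs that were searched on both strands or to the split RE1 core. At Hoatz the capitals are an AP-1 match (TGANTCA) that overlaps a GFI1 match (AATCACNGC), and at Nrg4 they are a T-box match (TCACACCT). Such matches stood at 5.09%, 0.405% and 0.729% of all Veh LSD1 peaks. At Klrc3 and Podnl1 no searched motif lay in these windows.
Hoatz, chr9:51103234-51103294, intron: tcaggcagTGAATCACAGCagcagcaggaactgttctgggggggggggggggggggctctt
Podnl1, chr8:84127424-84127484, intron: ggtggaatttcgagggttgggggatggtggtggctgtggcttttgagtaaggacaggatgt
Klrc3, chr6:129644169-129644229, between genes: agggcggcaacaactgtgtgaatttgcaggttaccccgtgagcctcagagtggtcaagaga
Nrg4, chr9:55283660-55283720, between genes: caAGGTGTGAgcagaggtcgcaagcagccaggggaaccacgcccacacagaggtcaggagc

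H3K4me1 covered the start site itself at more of these promoters than where both marks were present. The Veh peak covered the TSS at 726 windows (52%) and the GSK peak at 788 (56.5%). Where promoters carried both marks, H3K4me1 covered the TSS at 35.7% and 40% of 6347 windows. In Veh, its coverage there was 35.6% at -500 bp, 34.3% at -100 bp and 39% at 300 bp. The median fold enrichment of H3K4me1, which is the ChIP pileup over its local background, was 4.3 in Veh and 4.17 in GSK, and the median width was 818 bp and 966 bp. The median log2 ratio of the GSK to the Veh fold was -0.05. All of these values belong to the marks that chose the windows.

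**Figure D1:**
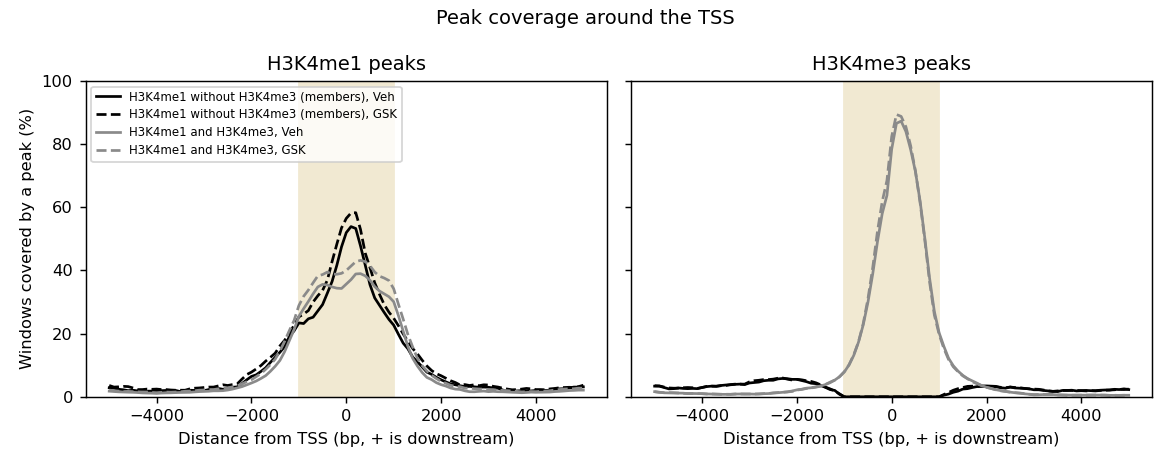
Share of windows (%) covered by an H3K4me1 peak (left) or H3K4me3 peak (right) against distance from the TSS (bp), for the 1395 H3K4me1-only promoters (black) and 6347 promoters with both marks (grey), in Veh (solid) and GSK (dashed); the shaded band is the window of the rule. H3K4me1 peaked over the TSS at the H3K4me1-only promoters (52% in Veh) and flattened there at promoters with both marks (35.7%); the absence of H3K4me3 within the band is set by the rule.

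The windows at the edge of the rule show how close some calls were. Esrrb, an orphan nuclear receptor of stem cells, entered with a GSK H3K4me1 peak at a −log10 q of 3.1, and Ccdc180 and Mrap2, an accessory protein of melanocortin receptors, entered at the same level. Pcdh17, a protocadherin, stayed out because of a Veh H3K4me3 peak at a −log10 q of 3.04. Spi1, the myeloid and B cell factor PU.1, stayed out with a Veh H3K4me3 peak at 3.1, and Lhx9, a homeobox factor, with a GSK peak at 3.21. The broad lists begin at a −log10 q of about 3.01, so the absence of a peak does not show the absence of the mark.

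H3K4me1-only promoters were poor in CpG. Their median ratio of observed to expected CpG was 0.319, against 0.592 at promoters with both marks, 0.685 at those with H3K4me3 alone and 0.211 at those with neither mark. A ratio of 0.6 or more was found at 203 windows (14.6%, 95% Wilson interval 12.8 to 16.5), against 48.2%, 68.3% and 4.07% in the other classes in the same order. The nearest H3K4me3 peak lay at a median of 17906 bp, within 2.5 kb of the TSS for 199 windows and beyond 50 kb for 347. For 227 windows (16.3%) another TSS of the same gene carried H3K4me3, and 301 (21.6%) lay in the body of a different gene, against 18.2% of all promoters and 20.2% of those with neither mark. By gene annotation, 1121 windows were of protein-coding genes, 197 of long noncoding RNA genes and 60 of microRNA hairpins.

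LSD1 was found at few of these promoters, and its peaks changed between treatments at most of those. In Veh, 218 windows had an LSD1 peak (15.6%, 13.8 to 17.6), and in GSK 270 did (19.4%, 17.4 to 21.5). Over all promoters the shares were 35.2% and 40.7%. Of the 218 windows, 115 kept a peak in GSK and 103 lost it, and another 155 had a peak in GSK only. The difference between gained and lost windows was 3.73 points of all members (1.48 to 5.87), and with both LSD1 lists cut to 19919 peaks it was 4.87 points. At distal enhancers with H3K4me1 in both treatments (regions over 2.5 kb from a TSS and free of H3K4me3) it was -7.43 points (-8.01 to -6.84), so the direction was opposite there. At promoters with both marks it was 9.23 points (8.04 to 10.4). Here and below, enhancers were scored over the merged peak itself and promoters over a fixed window, and the effect of this unlike size was not tested. The intervals cover counting error only, and start sites that lie close together share peaks.

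Retention of LSD1, the share of Veh-bound windows still bound in GSK, was 52.8% (46.1 to 59.3). Promoters with both H3K4me1 and H3K4me3 retained 87.6%, so the H3K4me1-only promoters differed from them by -34.8 points (-41.5 to -28.2, Newcombe interval). The median strength of the Veh peaks was close in these classes, with a −log10 p of 7.35 and 7.51. Distal enhancers with H3K4me1, scored over regions of unlike size, retained 43.7%, or 9.08 points less than the H3K4me1-only promoters (2.29 to 15.8). Within bins of Veh peak strength, the H3K4me1-only promoters retained 31.4% of 51 windows at a −log10 p of 3 to 5, 54.1% of 98 at 5 to 10, 57.4% of 47 at 10 to 20 and 86.4% of 22 at 20 and over. In the same bins promoters with both marks retained 70.6%, 87.1%, 96.3% and 98.7%, and enhancers 20%, 37%, 61.3% and 86.4%. The intervals of the H3K4me1-only promoters and of enhancers were apart in the bin of 5 to 10 and overlapped in the other bins, and at 10 to 20 the enhancers had the higher value.

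**Figure D2:**
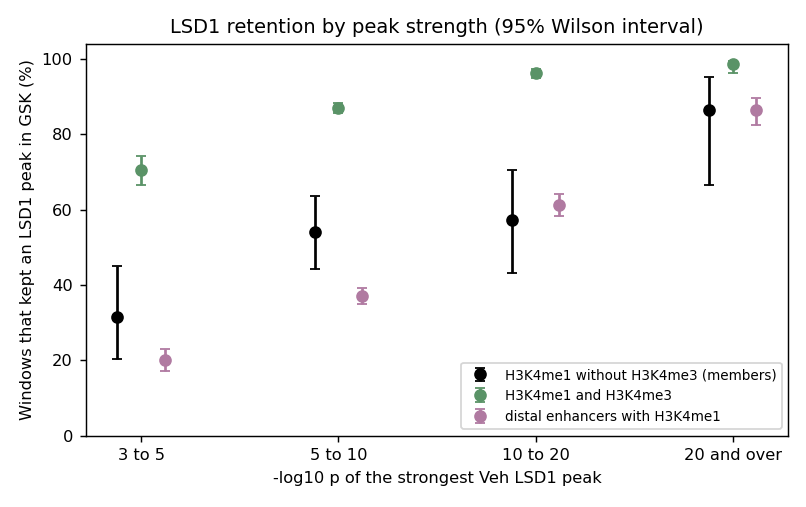
LSD1 retention (%, Veh-bound windows still bound in GSK) by the −log10 p of the Veh peak, for H3K4me1-only promoters (black), promoters with both marks (green) and distal enhancers with H3K4me1 (purple); bars are 95% Wilson intervals. Retention of the H3K4me1-only promoters ran from 31.4% in the weakest bin to 86.4% in the strongest and lay below that of promoters with both marks in every bin.

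CpG content moved with retention. H3K4me1-only promoters with a CpG ratio of 0.6 or more retained LSD1 at 32 of 42 windows (76.2%, 61.5 to 86.5), and the others at 83 of 176 (47.2%, 39.9 to 54.5). Promoters with both marks retained 93.7% and 79.8% in the same CpG groups, so the lower retention of H3K4me1-only promoters was present in both. The windows that kept LSD1 were CpG-rich at 27.8%, those that lost it at 9.71%, a difference of 18.1 points (7.78 to 27.9). Distance to H3K4me3 showed no such gap: retention was 50% of 32 windows within 2.5 kb, 52.6% of 135 at 2.5 to 50 kb and 54.9% of 51 further away, with intervals that overlapped.

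**Figure D3:**
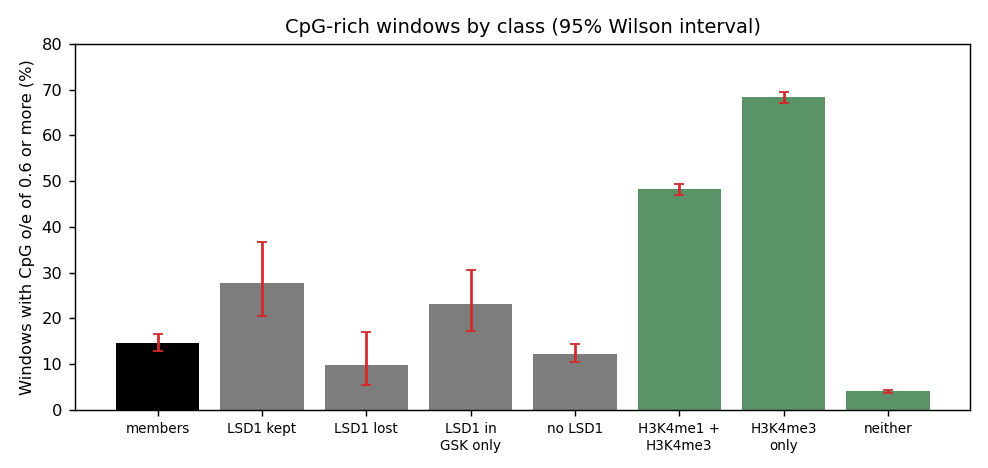
Share of windows (%) with an observed to expected CpG ratio of 0.6 or more, for all H3K4me1-only promoters (black), for those promoters by the fate of their LSD1 peak (dark grey) and for the other classes of promoters (green); bars are 95% Wilson intervals. The share was 27.8% where LSD1 was kept, 9.71% where it was lost and 23.2% where only GSK cells had it.

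The most significant LSD1 peaks were kept, with little change in fold. At Xkr7, which encodes a member of the XK family of membrane proteins, the LSD1 fold was 16.45 in Veh (−log10 p 79.1) and 17.91 in GSK (92.2). Ttc9b, a tetratricopeptide repeat protein, had folds of 14.21 (60.9) and 15.02 (72.1). Scrt1, a zinc finger repressor of neurons, had 10.35 (53.6) and 12.63 (76.2). At all of these the GSK value was the higher, as was the median fold of the whole LSD1 list (4.2 in Veh, 4.47 in GSK). Barhl1, a homeobox factor of the nervous system, had 12.93 (53.3) in Veh and 13.40 (56.6) in GSK. Unc119, a chaperone of lipid-modified signalling proteins, had 9.11 (36.1) and 9.17 (35.1), with no RE1-like match at its summit. None of these windows had a Pol II peak in either treatment, and their H3K4me1 fold in Veh ranged from 2.87 at Scrt1 to 5.89 at Xkr7.

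The other peaks with an RE1-like match were weaker and were kept as well, as the set required. Sez6, a neuronal membrane protein, had LSD1 folds of 10.71 in Veh and 9.95 in GSK, and Chgb, the granule protein chromogranin B, had 10.06 and 8.35. Grin1, a subunit of the NMDA receptor, had 7.45 and 9.12. Vgf, a neuropeptide precursor, had 5.84 and 6.58, and Gabrd, a subunit of the GABA-A receptor, had 6.65 and 5.74. Mmp24, a membrane metalloprotease, had 5.39 and 10.22. The rest of the 15 were at Amer3 (5.70 and 11.77), Lhfpl5 (4.64 and 4.63), Mdm4 (3.46 and 2.80), Ptprn (4.45 and 5.72) and Gm572 (3.27 and 4.09). Whether the genes with a match share a function was not tested. Of the 15 peaks, 10 had a higher LSD1 fold in GSK than in Veh, the direction of the list medians (4.2 in Veh, 4.47 in GSK). H3K4me2 was at 2 of the 15 in Veh and at 4 in GSK. The genes with H3K4me2 in GSK were Xkr7 (fold 7.20), Ttc9b (4.92), Sez6 (4.73) and Mmp24 (6.40, and 4.74 in Veh). Grin1 had H3K4me2 in Veh alone (5.39).

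The lost peaks ran from weak ones to a few in the strongest bin. Hoatz, named for a role in cilia and flagella, had a Veh LSD1 fold of 10.61 (−log10 p 35.7) and no GSK peak. Its summit lay at -1186 bp from the TSS, outside the window, and an H3K4me3 peak lay 1269 bp from the TSS. Podnl1, a leucine-rich repeat matrix protein, had 7.01 (23), with the summit also outside the window at 1465 bp. An H3K4me3 peak lay 1345 bp from the Podnl1 TSS. Ldlrad4, an inhibitor of TGF-β signalling, had 7.79 (19.5). Klrc3, the receptor NKG2E of natural killer and CD8+ T cells, had 7.08 (18), with the summit at -911 bp. Nrg4, a ligand of the ErbB4 receptor, had 7.89 (17.2). The 103 lost windows had a lower median −log10 p in Veh, 6.26, than the 115 kept windows, 8.87. The 250 bases before the Klrc3 TSS hold a pair of matches to the RUNX core (TGTGGT or its reverse complement), shown in capitals. This stretch does not overlap the lost LSD1 peak, which spans chr6:129644059-129644452. The same stretches of Hoatz and Nrg4 hold no RUNX match. At least 1 match is held by 15.3% of all promoters (250 bases before to 50 after the TSS) and 18.4% of the H3K4me1-only promoters.
Klrc3 promoter (RefSeq, GRCm38.p6), chr6:129643289-129643538, minus strand: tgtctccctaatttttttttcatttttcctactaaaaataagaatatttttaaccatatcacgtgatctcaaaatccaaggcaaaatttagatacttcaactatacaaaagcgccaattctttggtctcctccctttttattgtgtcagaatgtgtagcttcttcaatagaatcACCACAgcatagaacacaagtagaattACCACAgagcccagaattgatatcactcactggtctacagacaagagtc

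The RUNX core stood within 50 bp of the summit at 21.6% of lost LSD1 peaks, 12.5% of kept peaks, 6.82% of peaks in GSK only and 13.3% of all Veh LSD1 peaks. Lost exceeded GSK-only peaks by 14.8 points (5.82 to 24.6), while lost and kept peaks differed by 9.15 points with an interval that includes 0 (-1.57 to 19.7). The AP-1 letters were at 4.12% of lost and 13.5% of kept peaks, a difference of -9.42 points (-18 to -1.31), against 5.09% of all Veh LSD1 peaks. The RUNX and AP-1 letters were picked from the 9 motifs after their values were seen, and a match is a run of letters, not a bound site.

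LSD1 peaks that only GSK cells had reached a −log10 p of 24.1. Cldn7, the tight junction protein claudin 7, had a GSK fold of 8.77 (−log10 p 24.1), with a summit at 1455 bp from the TSS and an H3K4me3 peak 1323 bp away. Nmnat2, an enzyme of NAD synthesis in axons, had 6.99 (13.8), and Nsd1, a methyltransferase for lysine 36 of histone H3, had 5.05 (13). The summits of Nmnat2 and Nsd1 lay at 1297 and 1148 bp from the TSS, like that of Cldn7 outside the window. An H3K4me3 peak lay 1186 bp from the Nsd1 TSS. Cacnb3, a subunit of voltage-gated calcium channels, had 5.14 (12.5), and Ggt7, of the gamma-glutamyltransferase family, had 5.76 (12.3). None of these windows had a Veh LSD1 peak, and that of Nsd1 had H3K4me2 in both treatments (3.92 in Veh and 4.89 in GSK).

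**Figure D4:**
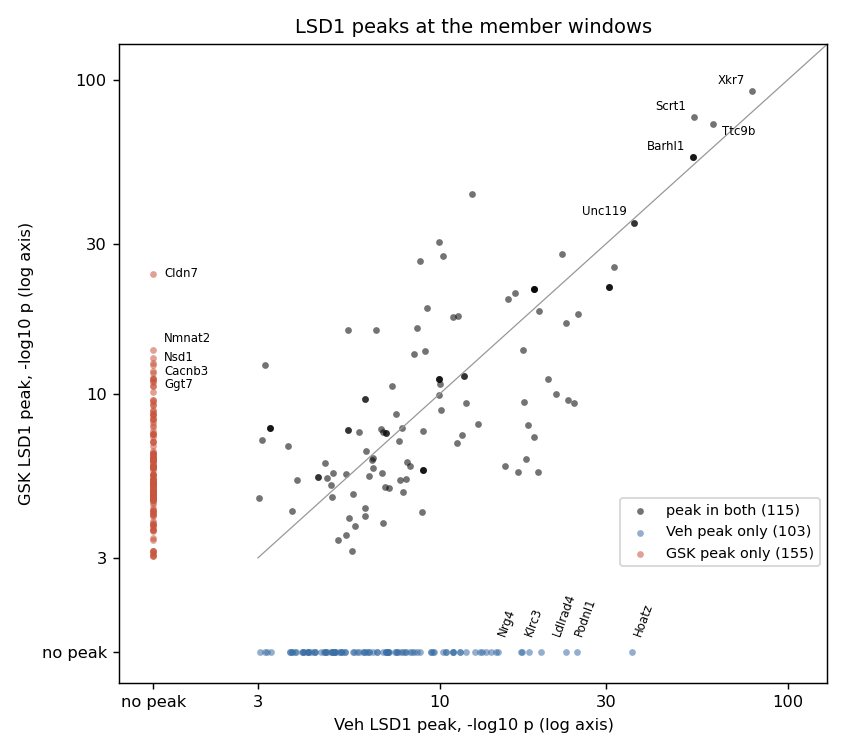
−log10 p of the LSD1 peak in Veh against GSK (log axes) for the 373 H3K4me1-only promoters with a peak in either treatment; points on the edges had no peak in the other treatment, and the grey line marks equal values. The peaks beyond a −log10 p of 50 in Veh (Xkr7, Ttc9b, Scrt1 and Barhl1) were present in both treatments, and the strongest lost peak, Hoatz, stood at 35.7.

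H3K4me2 was listed less often in GSK. A peak was found at 380 windows in Veh (27.2%, 25 to 29.6) and at 208 in GSK (14.9%, 13.1 to 16.9), against 38.2% and 27.4% of all promoters. It was in both treatments at 149 windows, in Veh only at 231 and in GSK only at 59, a net of -12.3 points (-14.1 to -10.2). Promoters with both marks had a net of -16.4 points and distal enhancers with H3K4me1 one of -7.17. This direction was not kept with lists of equal length, whose totals are equal by construction. The GSK H3K4me2 list, from the library with fewer read pairs, holds 9437 peaks and the Veh list 15219, and with both cut to 9437 by −log10 p the net at the same windows was 0.86 points (-1.14 to 2.83), and 0.835 at promoters with both marks. A loss of H3K4me2 and a less sensitive GSK library cannot be told apart here.

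Within the GSK library, H3K4me2 went with LSD1. It was present at 30.4% of the windows that kept LSD1 and at 10.7% of those that lost it, a difference of 19.8 points (9.07 to 29.8). Windows with LSD1 in GSK only had 25.2%, and windows without LSD1 had 12%. In Veh the same groups had 39.1%, 29.1%, 36.8% and 24.3%, and kept and lost windows differed by 10 points with an interval that includes 0 (-2.62 to 22.1). With the Veh list cut to the length of the GSK list, kept windows had 25.2% and lost windows 13.6% in Veh, a difference of 11.6 points (1.01 to 21.8). Windows with LSD1 in GSK only also had more H3K4me2 in Veh than windows without LSD1, by 12.5 points (4.82 to 20.7), and by 9.55 (3.46 to 16.9) with the shorter Veh list.

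Pol II was nearly absent. A Pol II peak was found at 24 windows in Veh (1.72%, 1.16 to 2.55) and at 17 in GSK (1.22%, 0.762 to 1.94), against 28.3% and 24% of all promoters and 42% and 34.4% of promoters with both marks. The shares were close to those of distal enhancers with H3K4me1, from which they differed by -0.285 points in Veh (-0.887 to 0.564). They were above those of promoters with neither mark by 0.93 points (0.344 to 1.77). Only 4 windows had Pol II in both treatments, 20 had it in Veh only and 13 in GSK only, a net of -0.502 points whose interval includes 0 (-1.2 to 0.299). For Pol II the GSK library had more read pairs than the Veh library. H3K27ac was at 28 windows in Veh (2.01%, 1.39 to 2.89) and at 7 in GSK (0.502%, 0.243 to 1.03), all 7 among the 28. Distal enhancers with H3K4me1 had 4.55% and 0.983%, from which the promoters differed by -2.55 points in Veh (-3.24 to -1.62) and by -0.482 in GSK (-0.783 to 0.0656). Over all promoters these shares were 20.3% and 8.51%. The H3K27ac lists hold 7410 and 2751 peaks, the GSK library having fewer read pairs, and cut to 2751 each they left 9 windows in Veh and 7 in GSK. At 724 windows (51.9%) none of LSD1, H3K4me2, Pol II and H3K27ac had a peak in either treatment.

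**Figure D5:**
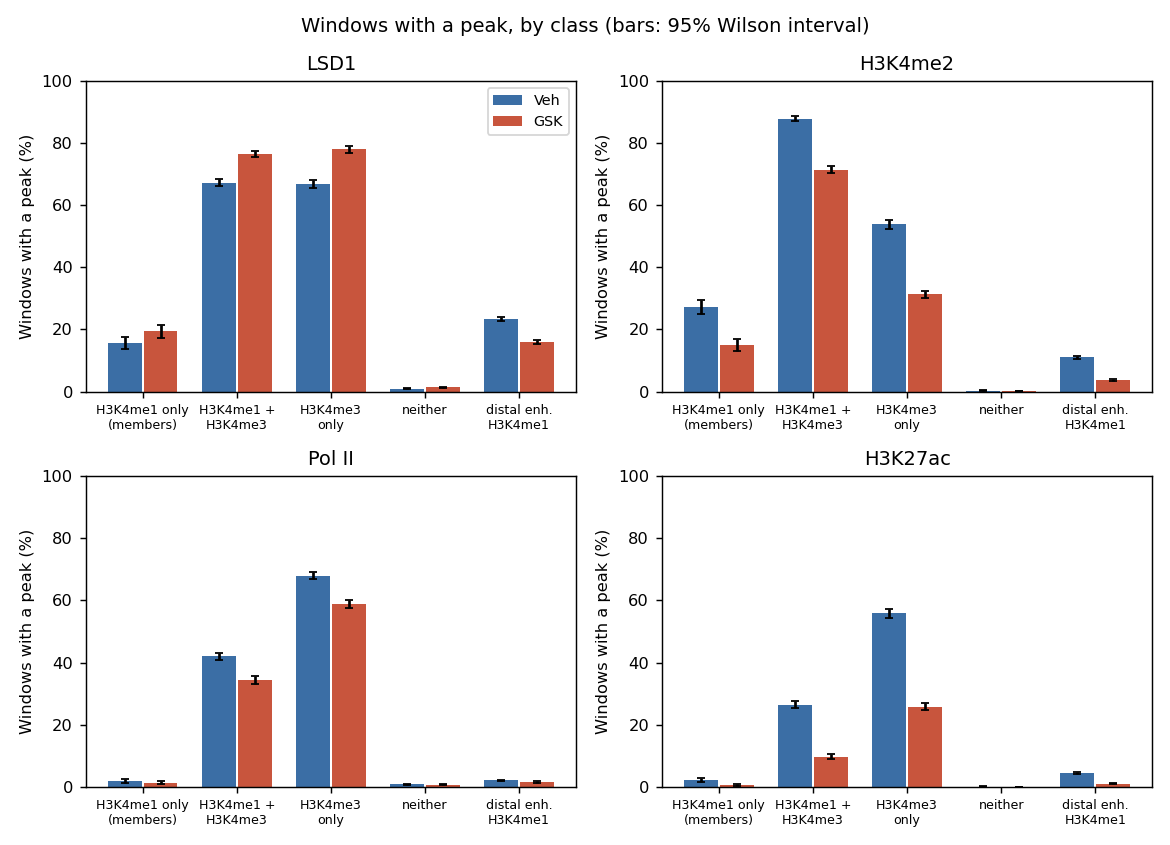
Share of windows with a peak (%) in Veh (blue) and GSK (red) for LSD1, H3K4me2, Pol II and H3K27ac, in 4 classes of promoters and in distal enhancers with H3K4me1; bars carry 95% Wilson intervals. The H3K4me1-only promoters stood near the enhancers for Pol II (1.72% in Veh), below them for H3K27ac in Veh (2.01% against 4.55%), and far below both classes with H3K4me3 for both.

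The 4 windows with Pol II in both treatments are accounted for by name. Snord118, the small nucleolar RNA U8 that takes part in ribosomal RNA processing, had Pol II folds of 16.82 in Veh (−log10 p 193) and 13.22 in GSK (131). Ccdc114, a docking protein of ciliary dynein arms, had 7.91 (29.4) and 4.96 (14.5), and Pdlim2, a PDZ and LIM domain protein that limits NF-κB and STAT4, had 7.31 (17.1) and 5.13 (11.7). Btbd19, a BTB domain protein, had 5.28 (16.1) and 3.55 (8.89). At each of these the Veh value was the higher, as was the median fold of the whole Pol II list (3.89 in Veh, 3.46 in GSK). Both Ccdc114 and Pdlim2 lost a Veh LSD1 peak (folds 4.43 and 3.84), with summits outside the window at -1174 and 1512 bp from the TSS. Jund, which encodes a subunit of AP-1, had the strongest Pol II peak found in GSK only (8.32, −log10 p 86.5), with an H3K4me3 peak 1252 bp from its TSS and one of the widest H3K4me1 peaks (4196 bp in Veh). Isg15, a ubiquitin-like protein induced by interferon and named here after its value was seen, had the strongest Pol II peak found in Veh only (6.16, −log10 p 12.7).

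H3K27ac was kept at the gene of the T cell receptor kinase Zap70, with folds of 4.10 in Veh and 4.36 in GSK. The Zap70 window lay 3229 bp from the nearest H3K4me3 peak, and another TSS of the gene carried that mark. It kept LSD1 (4.05 and 3.29) and had Pol II in GSK only (3.53). Podnl1 had H3K27ac folds of 3.75 and 4.76, the olfactory receptor gene Olfr525 had 3.70 and 4.41, and Btbd19 and the dynein light chain gene Tctex1d4, whose start sites share peaks, had 3.41 and 3.85. The GSK fold was the higher at all of these genes, in a list of fewer peaks. The median fold of the whole H3K27ac list was also higher in GSK (4.91, against 3.9 in Veh). The other 2 of the 7 windows were of long noncoding RNAs. S100a2, a calcium-binding protein, had the widest Veh H3K4me1 peak (4622 bp), with H3K27ac (2.65) and Pol II (4.15) in Veh only. Cyth1, an exchange factor for ARF proteins, had a Veh peak of 4101 bp, and P2rx7, an ATP-gated channel, one of 3604 bp with an LSD1 peak (4.46) that was lost.

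Among gene lists that cover T cell function and other blood lineages, 44 genes had an H3K4me1-only promoter. The background is 4.76% of all genes. The shares were 22.6% for natural killer receptor and Klr genes (7 of 31), 17.4% for chemokines and their receptors (8 of 46), 15.2% for B cell genes (5 of 33), 10.4% for cytokines and cytotoxic effectors (5 of 48) and 10.2% for myeloid genes (6 of 59). They were 9.43% for T cell transcription factors (5 of 53), 7.14% for erythroid and stem cell genes (2 of 28), 5.88% for adhesion genes (2 of 34), 5.77% for T cell receptor signalling (3 of 52), 5.36% for cytokine receptors (3 of 56) and 5% for inhibitory receptors (1 of 20). These lists are short, so 1 or 2 genes move a share by several points. At the H3K4me1-only windows of the 44 genes, Pol II or H3K27ac was found in either treatment at 1 gene, and it was Zap70 for both. Over all 1395 windows, 54 had Pol II or H3K27ac in either treatment. Other start sites of the list genes were not counted.

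LSD1 was found in Veh at the H3K4me1-only windows of 7 of the 44 genes, and 1 of them, Zap70, kept it. Over all 1395 windows, 218 had LSD1 in Veh, of which 115 kept it, and 155 had it in GSK only. Among the list genes, the lost peaks were at Klrc3 (described above), the cytotoxic granule protease gene Gzmc (fold 5.97, −log10 p 10.4, summit at -38 bp from the TSS) and the cytokine gene Il24 (5.12, 9.63). They were also at the integrin αM gene Itgam (4.52, 7), the chemokine receptor gene Ccr6 (3.47, 4.35) and Cd244a, the receptor 2B4 (3.06, 3.71). No peak of these 6 genes was in the strongest bin, and none of their H3K4me1-only windows had H3K4me2, Pol II or H3K27ac in either treatment. LSD1 in GSK only was found at 4 of the list genes. They were Tox2, a relative of the exhaustion factor TOX (4.93, 8.28), Egr3, an early response factor (3.26, 5.87), Gp9, a platelet receptor subunit (5.68, 8.56), and the B cell adaptor gene Bank1 (4.33, 5.9). Tox2 also had H3K4me2 in GSK only (6.42), and Egr3 in Veh only (2.90).

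The remaining list genes had H3K4me1 without LSD1 at their H3K4me1-only windows. The granzyme genes Gzma and Gzmm had H3K4me1 folds of 2.89 and 3.46 in Veh and of 3.06 and 2.82 in GSK. Ccl5, a chemokine of effector T cells, had 2.29 and 2.59. Cx3cr1, the fractalkine receptor, had 4.25 and 4.52, and Cxcl2, a chemokine for neutrophils, had 5.82 and 5.37 with H3K4me2 in Veh (5.49). Klra1 and Klre1, lectin-like receptors of natural killer cells, had 4.65 and 3.00 in Veh and 5.03 and 3.07 in GSK. Il12rb2, a subunit of the interleukin-12 receptor, had 3.11 and 2.51, and another TSS of the gene carried H3K4me3. Zbtb16, the factor PLZF of innate-like T cells, had 4.67 and 3.62. Of genes of other lineages, Cd22 had 5.47 and 4.67, Cd40 5.17 and 4.80 with H3K4me2 in both treatments (4.47 in Veh), Nlrp3 4.07 and 4.48 and Mmp9 2.78 and 2.33. No H3K4me1-only window of this group had a Pol II peak.

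The 60 microRNA members were placed by the 5′ end of the hairpin, which is not the start of the primary transcript. Mature sequences were found for 54 of them in RefSeq, and the 90 sequences had 89 distinct seeds, so they do not group by seed. Sequences are shown for the microRNA with the most significant H3K4me1 in Veh, the one with the most significant lost LSD1 peak and a cluster with H3K4me2 and H3K27ac, with the seed (bases 2 to 8) in capitals; other microRNAs with a further peak are not shown. Mir6944 had the most significant H3K4me1 in Veh (fold 5.79, and 4.50 in GSK), and H3K4me2 in Veh only (6.29). Mir7115 lost a Veh LSD1 peak (4.43, −log10 p 11.4). The genes of miR-23a, miR-27a and miR-24-2 lie in 1 cluster and share peaks; they were added after their values were seen. They had H3K4me1 folds of 3.45 in Veh and 3.05 in GSK, with H3K4me2 (3.38) and H3K27ac (3.45) in Veh only.
miR-6944-5p: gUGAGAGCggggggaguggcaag
miR-6944-3p: uAACUCUUcccuugugcccucag
miR-7115-5p: uCGGGGGUuguggugccgaauugu
miR-7115-3p: aCUUGGUCcccugcccccacag
miR-23a-3p: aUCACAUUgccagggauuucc
miR-27a-3p: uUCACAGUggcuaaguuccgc
miR-24-3p: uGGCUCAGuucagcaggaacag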

How the data were processed

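ChIP-seq was carried out with 6 antibodies in Veh and GSK cells. Only the 12 peak lists were used, and the 4 inputs were not analysed directly. By the study's reporting summary, input served as the control when the peaks were called, so the peak values depend on it. The authors aligned unique reads to mm10 (Bowtie2), dropped duplicates and ran MACS2 on each library at a p cutoff of 0.001. They drew equal read numbers from the libraries to compare signal; whether the peaks were called on those reads is not given in the sources used here. The deposited values per peak are a fold enrichment (ratio to local background), a −log10 p, a −log10 q and a score (10 times the −log10 p or −log10 q). The score was not used. Peaks are narrow with a summit for LSD1 and Pol II, and broad for histone marks.

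Start sites were the distinct TSSs of curated RefSeq transcripts on GRCm38.p6, with 1-based coordinates, and a window took its most significant overlapping peak. CpG ratios were computed over each window. Promoters of the RefSeq table matched 967 member start sites. Distal enhancers were merged H3K4me1 and H3K4me2 peaks over 2.5 kb from a TSS without H3K4me3, each scored over its own length. Shares have Wilson and differences Newcombe 95% intervals, which cover counting error only. Net changes count GSK-only minus Veh-only windows. With 1 library per antibody and treatment there is no test. Overlap and interval code was tested on simulated data. Python 3.11.15, numpy 2.4.6 and pandas 2.3.3 were used.

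The members, gene lists and motifs were chosen with earlier results of these data known. The genes named are the list genes and those with the most significant peaks of each kind (kept, lost and GSK-only LSD1, Pol II and H3K27ac in both treatments, widest H3K4me1, microRNAs), and others are said to have been added. Alternatives were the window, the overlap, peak thresholds, transcript type, list length and distance to H3K4me3.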

Additional observations from a re-analysis of the deposited data

How the results depend on the processing

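The choice of H3K4me1-only promoters and of peak thresholds was varied 1 setting at a time. LSD1 retention stayed between 50.3% and 54.9% under every alternative tried, including overlapping windows merged (added after seeing the data). The net change of H3K4me2 at the H3K4me1-only promoters was 2.03 points with all lists of equal length and 0.86 with the same windows, against -12.3 points, and it was -5.52 with a stricter q. Equal lists hold fewer Veh peaks by construction, and the version with the same windows was chosen after seeing the data. In that version it was 5.22 where LSD1 was kept, 3.87 where it was in GSK only, 0.294 without LSD1, -2.91 where it was lost and 0.835 at promoters with both marks; H3K27ac moved to -0.143.

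The other values that moved were the number of members with H3K4me1 at a −log10 q of at least 5 (858), the Veh LSD1 share (12.8% with a window of 500 bp, 18.2% with stricter H3K4me1 and 12.8% with a stricter LSD1 q) and the Veh H3K27ac share (3.03% with stricter H3K4me1, 0.628% with equal lists and 1.22% with a stricter q). The gap in LSD1 retention to promoters with both marks was -12.3 points at a −log10 p of 20 and over, where these promoters number 22. The cause of these moves was not tested, and lists cut to equal length cannot tell it. Of the alternatives, 47 left a value within its interval or its count within 1.5 times, 12 moved it and 6 reversed it. RE1-like matches at kept peaks were 6.25% with 0 mismatches and 21.9% with up to 2. No paired analysis was possible because the numbers in the labels belong to input samples and each antibody and treatment has 1 library. Kept and lost windows differed in Veh H3K4me2 by 11.6 points with lists of equal length (added after seeing the data), against 10. Sequencing depth differed between the libraries, so a missing peak was not detected rather than shown to be absent.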

Other observations

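The RE1-like match was also followed over the whole Veh LSD1 list. Of 159 Veh LSD1 peaks with a match, 113 overlapped a GSK LSD1 peak (71.1%, 95% Wilson interval 63.6 to 77.6), against 11484 of 21093 without one (54.4%, 53.8 to 55.1). Peaks with a match had a median −log10 p of 9.95 and the others one of 6.73. Among peaks with a −log10 p of 10 and over, 89.7% of 78 with a match and 81.2% of 5046 without one overlapped a GSK peak, with intervals of 81 to 94.7 and 80.1 to 82.3. Among weaker peaks the shares were 53.1% of 81 and 46% of 16047, with intervals that overlapped. Inside promoter windows, 86.5% of 74 peaks with a match and 83% of 8615 without one did so, and outside them 57.6% of 85 and 34.7% of 12478.

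Gene families that were counted after the members had been seen ran on both sides of the background of 4.76%. Potassium channel genes (Kcn) had an H3K4me1-only promoter at 8 of 98 (8.16%) and solute carrier genes (Slc) at 30 of 381 (7.87%). Zinc finger genes (Zfp) had one at 9 of 403 (2.23%), ribosomal protein genes at 1 of 105 (0.952%), olfactory receptor genes at 9 of 1125 (0.8%) and vomeronasal receptor genes at 0 of 357.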
